A study of Mus musculus with 2 samples.

Results

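MHC class II molecules are heterodimers that carry peptides from the endosomes of antigen-presenting cells to the surface, where CD4 T cells read them. The 8 genes described here are those of that pathway whose symbols were given by name: the chain genes H2-Aa, H2-Ab1 and H2-Eb1, the peptide-editor genes H2-DMa, H2-DMb1 and H2-DMb2, the invariant chain gene Cd74 and the transactivator gene Ciita. They were found by the symbol field of the transcript identifiers, linked by gene ID to the gene tables, and all 8 were found among the 55536 annotated genes. All 6 H2 genes lie on chromosome 17, Ciita on chromosome 16 and Cd74 on chromosome 18 (mouse build mm10).

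Nuclear RNA of macrophages grown from C57BL/6J mouse bone marrow (primary cells) was sequenced after depletion of ribosomal RNA. The cells received 100 ng/ml Lipid A, the membrane anchor of bacterial endotoxin that activates TLR4, for 12 hours, spent 12 hours without it and were given 100 ng/ml again for 60 min. The series holds this 1 group with 2 biological replicates, from 1 µg of RNA in replicate 1 and 500 ng in replicate 2. The labels call the fraction nuclear in one field and nucleoplasmic in another, give both replicates the same donor identifier and name no separate animals, and the spread between replicates may thus be technical. There is no unstimulated or singly stimulated group here, so no value can be read as a response to Lipid A, and no test between conditions can be made.

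The α and β chains pair in the endoplasmic reticulum around the invariant chain, a chaperone that blocks the peptide groove and steers the complex to endosomes. Proteases there cut the invariant chain down to a short fragment, and the editor H2-DM exchanges that fragment for antigenic peptide. Transcription of these genes depends on Ciita, a co-activator that does not bind DNA itself but sits on the factors RFX, CREB and NF-Y at a shared promoter module known as the S, X and Y boxes. Macrophages are known for low class II levels at rest and for raising them after interferon-γ, while dendritic cells and B cells carry much of it all the time.

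The Y box is read on its core GATTGG, and the X2 element of the X box resembles a CREB site. The stretches shown hold bases -130 to -31 from the start in the promoter entries of 4 of the 8 genes, because that is where the shared module can be seen in letters. They are printed 5′ to 3′ on the strand of the gene, from RefSeq (GRCm38.p6). Capitals mark TGANG and, 10 to 30 bases after it, GATTGG.
H2-Aa: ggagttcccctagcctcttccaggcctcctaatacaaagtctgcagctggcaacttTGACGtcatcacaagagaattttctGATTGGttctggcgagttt
H2-Eb1: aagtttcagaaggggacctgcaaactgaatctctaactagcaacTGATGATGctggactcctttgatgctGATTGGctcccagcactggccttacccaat
H2-DMb1: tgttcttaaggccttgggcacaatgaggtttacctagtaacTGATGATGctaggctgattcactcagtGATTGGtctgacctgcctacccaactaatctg
H2-DMb2: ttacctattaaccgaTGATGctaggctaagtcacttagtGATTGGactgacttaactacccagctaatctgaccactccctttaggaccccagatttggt
The stretches lie at chr17:34287854-34287953 on the minus strand for H2-Aa, and on the plus strand at chr17:34305737-34305836 for H2-Eb1, chr17:34153061-34153160 for H2-DMb1 and chr17:34145119-34145218 for H2-DMb2. The promoter entries and the annotation used for the levels (GENCODE M21) place some starts differently. H2-DMb1 begins at chr17:34153072 in GENCODE M21, so most of its stretch, with both motifs, lies inside the annotated gene. The H2-DMb2 stretch lies before the transcript H2-DMb2-201 (from chr17:34145236) but inside the gene, which begins at chr17:34143307. Of the 8 genes 5 have promoter entries in that table, 6 entries in all, and 4 genes hold the pair within 250 bases before to 50 bases after the start. H2-DMa, the fifth, holds no such pair in that window; H2-Ab1, Cd74 and Ciita have no entry.

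In H2-Eb1 and H2-DMb1 the first motif is printed as TGATGATG, which holds overlapping matches of TGANG. The gap between the motifs was 20 bases in H2-Aa, 18 in H2-Eb1 and 19 in both H2-DMb1 and H2-DMb2, and GATTGG began at -49, -60, -62 and -91 in that order. Over all 32851 promoter entries, searched on both strands, 529 or 1.61% held the pair and 16.1% held GATTGG. Outside the 8 genes, the same pair stood in the promoters of H2-Ob at chr17:34238775-34238874 and H2-Eb2 at chr17:34325545-34325644, with gaps of 16 and 21 bases. The motif pair was chosen after the sequences were seen, and a match is a description of letters, not a binding site.

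Transcript of 7 of the 8 class II genes was present in the nuclear RNA, at widely different levels, and that of H2-DMb2 was close to absent. As TPM, a level relative to all transcripts of the library and corrected for their length, 7 of 8 stood at 1 TPM or more in both libraries and 5 at 10 TPM or more. Among 22015 nuclear protein-coding genes, those not on the mitochondrial genome, 39.85% were at 1 TPM or more in both and 14.8% at 10 TPM or more. The 8 genes summed to 562 TPM in replicate 1 and 316 in replicate 2, and the invariant chain gene made up more of that sum than the 3 chain genes together. Their reads were a small part of each library: 15081 of 23630328 expected counts (estimates of reads per gene; 0.0638%) in replicate 1 and 7598 of 15687634 (0.0484%) in replicate 2. In bulk RNA such a level cannot tell apart many cells with little transcript from few cells with much. A further set of deposited transcript tables, in the format of kallisto and called the second quantifier here, also put 7 of 8 at 1 TPM or more, and 4 of 8 at 10 TPM or more.

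The levels themselves depended on the quantifier, and most were lower in the second. There Cd74 averaged 95.9 ± 2.09 TPM, H2-Ab1 26.1 ± 1.70 TPM, H2-Aa 22.98 ± 1.18 TPM and H2-Eb1 16.9 ± 2.89 TPM (SD, n = 2). The editor genes H2-DMa and H2-DMb1 averaged 10.1 ± 0.326 and 3.85 ± 0.646 TPM, Ciita 5.46 ± 1.20 TPM and H2-DMb2 0.170 ± 0.0179 TPM (SD, n = 2). Values are those of the gene tables wherever the second quantifier is not named.

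**Figure D1:**
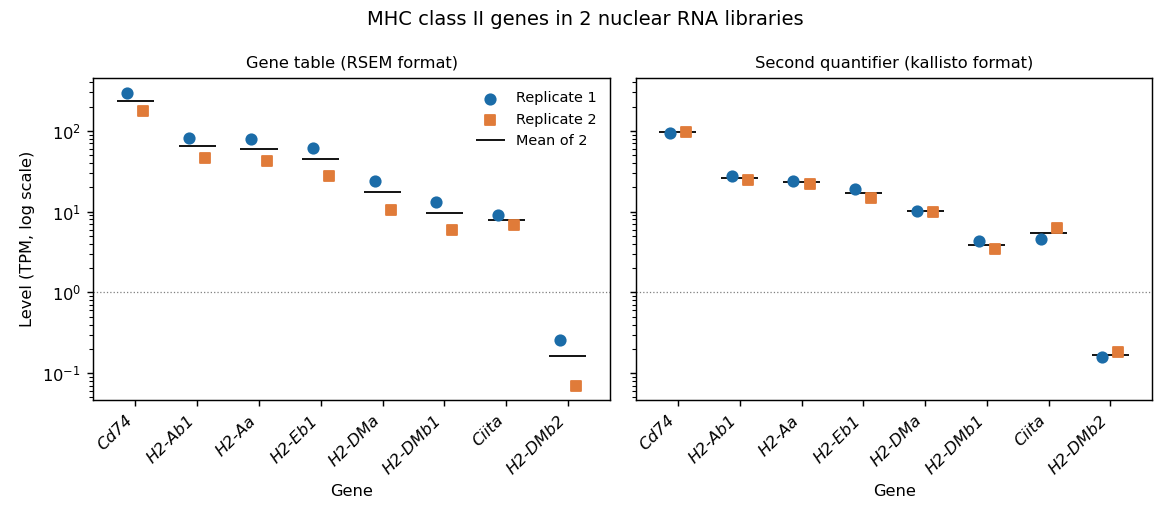
Level of each of the 8 class II genes (TPM, log scale) in both libraries, with the mean of 2 as a line, in the gene tables (left) and from the second quantifier (right). The dotted line marks 1 TPM; Cd74 stands highest at 293 and 177 TPM in the gene tables, and H2-DMb2 alone lies under the line, at 0.26 and 0.07 TPM.

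Within each library the order from the top was Cd74, H2-Ab1, H2-Aa, H2-Eb1 and H2-DMa, with H2-DMb1 and Ciita next in either order and H2-DMb2 last. The ranges over both libraries did not overlap between Cd74 and H2-Ab1, between H2-Eb1 and H2-DMa, or between Ciita and H2-DMb2. The ranges of the other neighbours overlapped, but H2-Ab1 stood above H2-Aa, H2-Aa above H2-Eb1 and H2-DMa above H2-DMb1 within each library, in both quantifiers. H2-DMb1 and Ciita alone had no fixed order.

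The chains of the I-A molecule come from H2-Aa (α, chr17:34282744-34287823, minus strand) and H2-Ab1 (β, chr17:34257689-34269419, plus strand). H2-Ab1 had 82.3 TPM in replicate 1 and 45.7 in replicate 2, a mean of 64.0 ± 25.9 TPM (SD, n = 2). H2-Aa had 78.4 and 42.1 TPM, a mean of 60.25 ± 25.7 TPM (SD, n = 2). The partner chains were thus at nearly the same level within each library, with H2-Ab1 1.05 times H2-Aa in replicate 1 and 1.08 times in replicate 2. The second quantifier gave 1.15 and 1.12 times. In rank from the top of the nuclear protein-coding genes, H2-Ab1 stood at 588 and 747 and H2-Aa at 619 and 799.

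H2-Eb1 (chr17:34305867-34316674, plus strand) encodes the β chain of the I-E molecule. It had 60.8 TPM in replicate 1 and 27.7 in replicate 2, a mean of 44.25 ± 23.4 TPM (SD, n = 2), so it was lower than H2-Aa by a factor of 1.29 in replicate 1 and 1.52 in replicate 2 (1.26 and 1.49 in the second quantifier). Its α partner is annotated as the pseudogene H2-Ea-ps, since C57BL/6 mice are known to carry a deletion in that gene and to lack surface I-E. No read of H2-Ea-ps was counted in either library. An allowance of 3 counts for 0, for counting error only, equals 0.174 TPM in replicate 1 and 0.198 in replicate 2. The upper bounds deposited with the levels, of unstated confidence, were 0.290 and 0.331 TPM. The I-E β chain was thus read in these cells while no read was counted for its α partner.

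The transcript tables placed most H2-Eb1 RNA outside the annotated coding forms, unlike the other 2 chain genes. H2-Eb1-205, annotated as a target of nonsense-mediated decay (the pathway that removes RNAs with early stop codons), had 31.6 TPM in replicate 1 and 19.6 in replicate 2, or 51.9% and 70.7% of the gene. The retained-intron form H2-Eb1-204, a transcript that keeps sequence other forms splice out, had 16.7 and 6.25 TPM, and H2-Eb1-202, of the same class, had 5.91 TPM and 0 TPM. The coding form H2-Eb1-203 had 4.58 and 0.57 TPM, and H2-Eb1-201, chosen after its values were seen because of its structure, had 2.06 and 1.3 TPM. H2-Eb1-205 differs from H2-Eb1-203 by a missing stretch of 53 bases at the start of the second exon (chr17:34309591-34309643), shown in capitals with 20 bases on each side, from the GENCODE M21 transcripts.
H2-Eb1-203: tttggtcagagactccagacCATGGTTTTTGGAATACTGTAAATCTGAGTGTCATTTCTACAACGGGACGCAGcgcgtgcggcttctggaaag
H2-Eb1-205: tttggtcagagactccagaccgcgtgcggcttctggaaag
The loss of 53 bases, not a multiple of 3, shifts the reading frame.

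The annotated ends of these transcripts bear on that division. H2-Eb1-205 shares the nearer 3′ end with H2-Eb1-201, whereas H2-Eb1-203 runs on for another 475 bases, and H2-Eb1-201 alone holds a further 127 bases before 1 of its exons (chr17:34314916-34315042). Of the 5 annotated H2-Eb1 transcripts, 0 hold the 53 bases, lack the 127 bases and stop at the nearer end. Reads from an RNA of that structure would have to be divided among the annotated ones, and reads across the splice were not analysed here, so the share of RNA that lacks the 53 bases was not measured directly. The second quantifier gave H2-Eb1-205 41.2% and 56.9% of the gene. Since TPM are corrected for the length of each transcript, the level of H2-Eb1 as a whole gene also depends on this division.

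**Figure D2:**
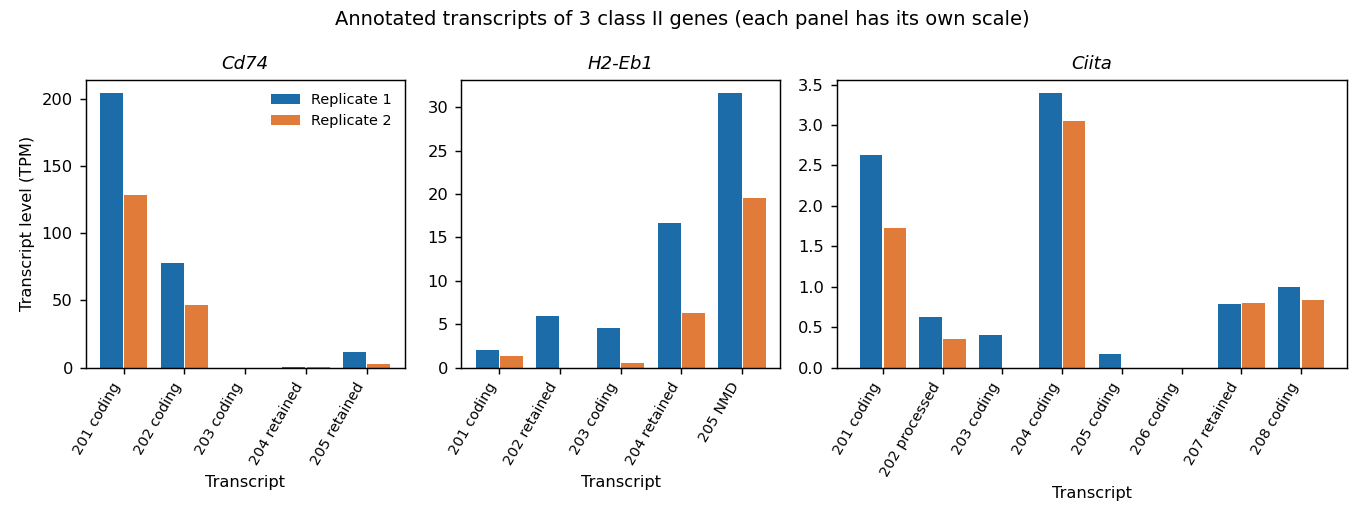
TPM of each annotated transcript of Cd74, H2-Eb1 and Ciita in replicate 1 (blue) and replicate 2 (orange); labels give the transcript number and its annotated class, NMD being nonsense-mediated decay. H2-Eb1-205 leads its gene at 31.6 and 19.6 TPM, Cd74-201 at 204 and 128 TPM, and Ciita-204 at 3.39 and 3.05 TPM.

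The editor H2-DM is a class II-like heterodimer whose α chain comes from H2-DMa (chr17:34119541-34139101, plus strand) and whose β chain comes from H2-DMb1 (chr17:34153072-34160230) or its near copy H2-DMb2 (chr17:34143307-34151555), both on the plus strand. H2-DMa had 24.2 TPM in replicate 1 and 10.6 in replicate 2, a mean of 17.4 ± 9.60 TPM (SD, n = 2). H2-DMb1 had 13.2 and 5.85 TPM, a mean of 9.51 ± 5.18 TPM (SD, n = 2). The α chain gene was 1.83 and 1.81 times as high as H2-DMb1, and 2.39 and 2.90 times in the second quantifier. Both lay under the classical chains: H2-Eb1, the lowest of those, was 2.52 and 2.62 times H2-DMa, and 1.84 and 1.51 times in the second quantifier.

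H2-DMb2 had 0.26 TPM from 8.26 expected counts in replicate 1 (95% Poisson interval 3.45 to 15.8 counts) and 0.07 TPM from 2.05 counts in replicate 2 (0.242 to 7.22). H2-DMb1 was 50.7 and 83.6 times as high, and the second quantifier gave 27.4 and 18.6 times. The copies are close enough to exchange reads. H2-DMb1-201 and H2-DMb2-201 were identical at 93.9% of 1255 aligned bases, with 76 mismatches. Counted per gene, over more than this pair of transcripts, H2-DMb1 and H2-DMb2 shared 517 runs of 31 bases. These were 31.4% of the 1648 runs of H2-DMb1 and 29.7% of the 1741 of H2-DMb2. A window of 60 coding bases with 17 mismatches, in capitals, shows a stretch where they differ far more than over the whole alignment. It spans bases 535 to 594 of H2-DMb1-201 and 388 to 447 of H2-DMb2-201 (GENCODE M21).
H2-DMb1-201: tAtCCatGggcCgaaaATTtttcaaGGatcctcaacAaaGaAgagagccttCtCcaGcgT
H2-DMb2-201: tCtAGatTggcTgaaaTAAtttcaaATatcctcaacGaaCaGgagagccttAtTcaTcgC
Since the counting can split reads between such copies, the level of H2-DMb2 is uncertain; it was below 1 TPM in both libraries and both quantifiers.

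H2-DMa also held annotated transcripts that reach into a neighbour. Its coding transcript H2-DMa-205 had 12.0 TPM in replicate 1 and 4.23 in replicate 2, and H2-DMa-201, coding and of 6 exons, had 0.60 and 0.81 TPM. The short processed transcript H2-DMa-203, of 350 bases, had 8.40 and 1.85 TPM, but from only 32.1 and 5.86 counts. H2-DMa-208 starts inside Brd2, which lies on the opposite strand and overlaps H2-DMa over 3094 bases; it had 2.24 and 2.32 TPM, or 9.27% and 21.9% of H2-DMa. The retained-intron form H2-DMa-202 had 0 and 0.63 TPM. The use of strand in the counting is not given in the sources used here, so reads of Brd2 and of H2-DMa cannot be told apart where they overlap.

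Ciita (chr16:10480059-10528418, plus strand) had 9.00 TPM in replicate 1 and 6.77 in replicate 2, a mean of 7.885 ± 1.58 TPM (SD, n = 2), from 718 and 433 expected counts. Ciita and H2-DMb1 do not differ in order beyond their spread: H2-DMb1 was 1.46 times Ciita in replicate 1 and 0.864 times in replicate 2. In the second quantifier Ciita was the higher of this pair in both libraries, at 4.61 and 6.32 TPM against 4.31 and 3.40 TPM for H2-DMb1, the only change in the order of means. Ciita overlaps Dexi on the opposite strand over 25888 bases, and Dexi had 5.28 and 4.34 TPM.

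The mouse Ciita gene is known to be read from several promoters, which are used to different degrees in dendritic cells, in B cells and after interferon-γ. The annotated transcripts fall into 3 groups of start sites along the gene. The first group, Ciita-205 to Ciita-207, held 0.95 TPM in replicate 1 and 0.80 in replicate 2, nearly all of it the retained-intron form Ciita-207 (0.78 and 0.80 TPM). The second, Ciita-201 and Ciita-202, held 3.25 and 2.08 TPM, of which the full-length coding form Ciita-201 had 2.63 and 1.73 TPM and the processed transcript Ciita-202 had 0.62 and 0.35 TPM. The third, Ciita-203, Ciita-204 and Ciita-208, held 4.79 and 3.89 TPM.

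The order of these groups turned on how they were measured. By TPM the third group held 55.4 ± 2.95% of Ciita, the second 33.4 ± 3.84% and the first 11.2 ± 0.884% (SD, n = 2). By expected counts the second held 62.7 ± 1.71% and the third 25.1 ± 0.438%, while TPM of the second quantifier gave the third 66.7 ± 3.23%. Most of the third group was Ciita-204, a form of 2 exons and 1620 bases that ends in an intron, at 3.39 and 3.05 TPM; without it the group held 14.0 ± 2.24% of the gene's TPM and 4.70 ± 3.65% of its expected counts. Ciita-208, of 680 bases, had 1.00 and 0.84 TPM from 12.4 and 9.19 counts. In the second quantifier Ciita-208 was the larger of the pair, with 39.8 ± 3.46% of the gene against 25.5 ± 1.74% for Ciita-204, and the group without Ciita-204 held 41.2 ± 1.49%. Ciita-201 is the sole transcript that runs the last 1992 bases to the gene's end, so reads of that stretch fall to the second group wherever transcription began. Which start was used was not measured here.

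Cd74 (chr18:60803848-60812652, plus strand) was the highest of the 8 genes in both libraries and in both quantifiers. It had 293 TPM in replicate 1 and 177 in replicate 2, a mean of 235 ± 82.1 TPM (SD, n = 2), from 8060 and 4383 expected counts. Among the nuclear protein-coding genes it ranked 127 and 146. The invariant chain transcript was 3.56 times that of H2-Ab1 in replicate 1 and 3.88 times in replicate 2, and the second quantifier gave 3.46 and 3.91 times.

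Cd74 makes a short and a long protein form, known as p31 and p41, and the long one carries an added domain that binds cathepsins. The long form's transcript Cd74-202 holds an extra exon of 192 bases (chr18:60811294-60811485). Cd74-202 had 77.4 TPM in replicate 1 and 46.5 in replicate 2, against 204 and 128 TPM for Cd74-201, which lacks the exon. Transcripts with the exon made up 27.5% and 26.6% of coding Cd74, a mean of 27.1 ± 0.643% (SD, n = 2). In the second quantifier the share was 31.6% and 32.4%, a mean of 32.0 ± 0.542% (SD, n = 2).

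Over the 8 genes together, RNA annotated as anything but coding held 17.5% of TPM in replicate 1 and 16.0% in replicate 2, a mean of 16.7 ± 1.11% (SD, n = 2). Over all nuclear protein-coding genes it held 24.5% and 28.9%, a mean of 26.7 ± 3.10%. Retained-intron forms held 8.92 ± 1.02% of the class II TPM and 18.7 ± 2.39% of the TPM of all these genes. The share annotated as a target of nonsense-mediated decay was 5.90 ± 0.397% against 2.85 ± 0.176%. In the class II genes it was H2-Eb1-205 alone, whose part of its gene was not measured directly. By expected counts this share was 5.03 ± 0.304% against 2.32 ± 0.0859%. In TPM of the second quantifier the 2 were closer, at 4.49 ± 0.342% against 3.53 ± 0.0614%. The sum is weighted towards Cd74, whose retained-intron forms held 4.16% and 1.63% of its TPM. In TPM of the second quantifier these Cd74 forms held 12.7% and 6.07%.

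The shares of the other genes spread widely. H2-Ab1 held 16.25% of its TPM as retained-intron forms in replicate 1 and 27.9% in replicate 2, among them H2-Ab1-203 with 3.81 and 8.20 TPM and H2-Ab1-202 with 3.44 and 2.90 TPM, beside the coding form H2-Ab1-201 with 68.4 and 30.97 TPM. H2-Aa held 6.60% and 6.15%, all of it H2-Aa-203 at 5.17 and 2.59 TPM, beside the coding form H2-Aa-201 at 72.4 and 39.4 TPM. By TPM this H2-Aa share lay under the 18.7 ± 2.39% of all nuclear protein-coding genes. By expected counts it lay above theirs, at 18.9% and 17.8% against 11.6% and 14.2%. In TPM of the second quantifier it was 9.27% and 9.25%, against 19.9% and 22.6%. The retained-intron share of H2-Ab1 was 9.61% and 13.2% by expected counts. H2-DMa held 46.8% and 48.6% outside coding forms, mostly as processed transcripts, but this share turned on the measure: by expected counts it was 18.6% and 25.3%, against 15.7% and 18.7% over all nuclear protein-coding genes. In TPM of the second quantifier it was 64.9% and 69.2%, against 33.6% and 36.6%. In the gene tables' quantifier H2-DMb1 was H2-DMb1-201 alone, all of it coding. The second quantifier put 12.6% and 3.45% of H2-DMb1 outside coding forms. The H2-DMb2 counts fell to the coding forms H2-DMb2-201 (0.13 and 0 TPM) and H2-DMb2-203 (0.13 and 0.07 TPM).

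**Figure D3:**
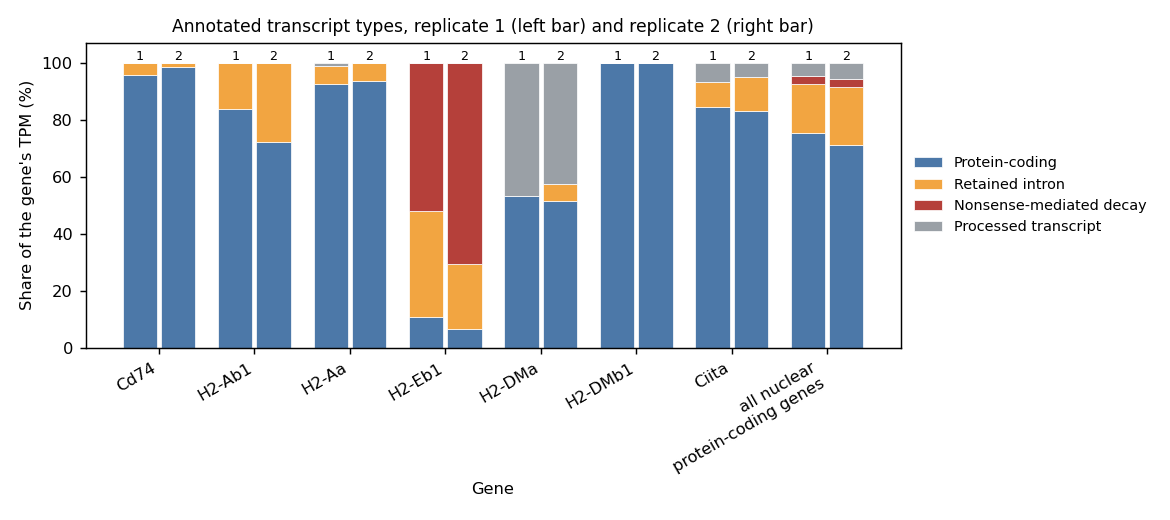
Share of each gene's TPM by annotated transcript class, replicate 1 in the left and replicate 2 in the right bar of each pair; H2-DMb2, at under 10 counts, is left out. H2-Eb1 held 89.1% and 93.2% and H2-DMa 46.8% and 48.6% outside coding forms, against 24.5% and 28.9% over all nuclear protein-coding genes; by expected counts the H2-DMa share was 18.6% and 25.3%.

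The libraries were compared after scaling their expected counts to each other by TMM, which assumes that most genes do not differ, since the deposited TPM were higher in replicate 1 for most genes (a median log2 difference of 0.47 over nuclear protein-coding genes). On that scale 0 of the 7 class II genes that averaged 10 or more counts were over 2-fold apart, beside 8.95% of all 14052 genes so filtered, and 4.45% of these were over 2-fold higher in replicate 1. H2-DMb2 did not pass the filter. All 7 were somewhat higher in replicate 1, with a median log2 ratio of 0.52, while 52.3% of the 11125 nuclear protein-coding genes were higher there, with a median of 0.02 and 5th and 95th percentiles of -0.75 and 0.83. These genes share a regulator, and 6 of the 8 share a region, so they are not separate observations of the libraries.

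The ratio ran from 1.08-fold for Ciita (95% counting interval 0.961 to 1.22) and 1.20-fold for Cd74 (1.16 to 1.25) to 1.65-fold for H2-DMb1 (1.38 to 2.00). Between them lay H2-Aa at 1.38-fold (1.28 to 1.49), H2-DMa at 1.44-fold (1.20 to 1.72), H2-Ab1 at 1.51-fold (1.39 to 1.63) and H2-Eb1 at 1.60-fold (1.45 to 1.77). Of the 7 intervals, that of Ciita alone spans equal levels. When TPM were rescaled to the sum of nuclear protein-coding genes the Ciita ratio changed sign, to -0.17 on the log2 scale, and the other 6 stayed above 0. The intervals cover counting error only, and with 2 libraries nothing more can be said of the spread.

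**Figure D4:**
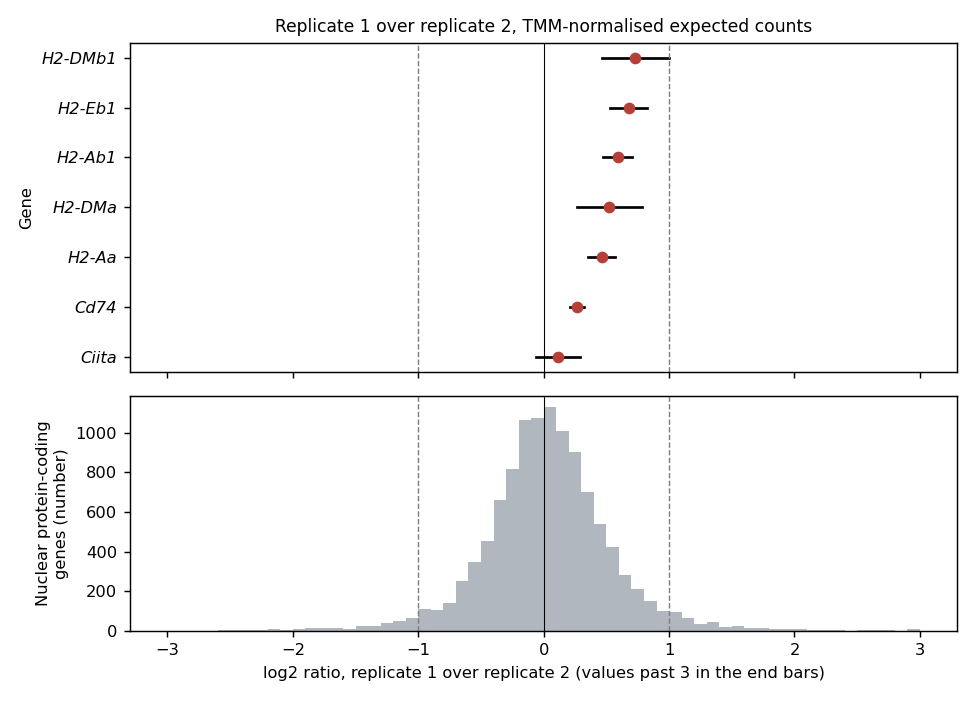
Top, log2 ratio of replicate 1 over replicate 2 for the 7 class II genes that passed the filter, with 95% counting intervals; bottom, the same ratio for 11125 nuclear protein-coding genes. Dashed lines mark 2-fold; the points run from 1.08-fold (Ciita) to 1.65-fold (H2-DMb1), to the right of 0 but inside the dashed lines.

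The other class II genes of the region were nearly absent from the same RNA. H2-Oa and H2-Ob encode the chains of H2-O, an inhibitor of H2-DM that is best known from B cells. H2-Oa had 0.20 TPM in replicate 1 and 0.24 in replicate 2, and H2-Ob had 0.16 and 0.03 TPM. H2-Eb2, a second β chain gene, had 0.04 and 0.03 TPM. With H2-Ea-ps, 0 of these 4 reached 1 TPM in both libraries, and their sum was 0.40 and 0.30 TPM. In the second quantifier H2-Ob stood at 4.39 and 4.67 TPM, so its level depends on the method. H2-Ob, H2-Eb2 and H2-DMb2 all hold the motif pair, as do H2-Aa, H2-Eb1 and H2-DMb1, which reached 1 TPM in both libraries.

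Of the 16 genes listed along the 277 kb from H2-Oa to Btnl2, 10 reached 1 TPM in both libraries; other annotated genes of that span were not counted. H2-Ab1, H2-Aa and H2-Eb1 lie side by side among the listed genes, with H2-Ob on one side and H2-Eb2, H2-Ea-ps and Btnl2 on the other, all 4 under 1 TPM. The region also holds genes of the class I pathway: Tap1 and Tap2, which pump peptides into the endoplasmic reticulum, and Psmb8 and Psmb9, catalytic subunits of the immunoproteasome. Tap1 had 200.2 TPM in replicate 1 and 91.1 in replicate 2, Tap2 84.6 and 30.2 TPM, Psmb8 52.4 and 19.7 TPM, and Psmb9 33.7 and 13.9 TPM. Brd2, a reader of acetylated histones, had 128 and 115 TPM, and Btnl2, a butyrophilin-like gene, 0.02 and 0 TPM. Of these 6 neighbours 5 reached 10 TPM in both. On the TMM scale Tap2 was 2.05-fold and Psmb8 1.95-fold higher in replicate 1, and Brd2 was at 0.982-fold.

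**Figure D5:**
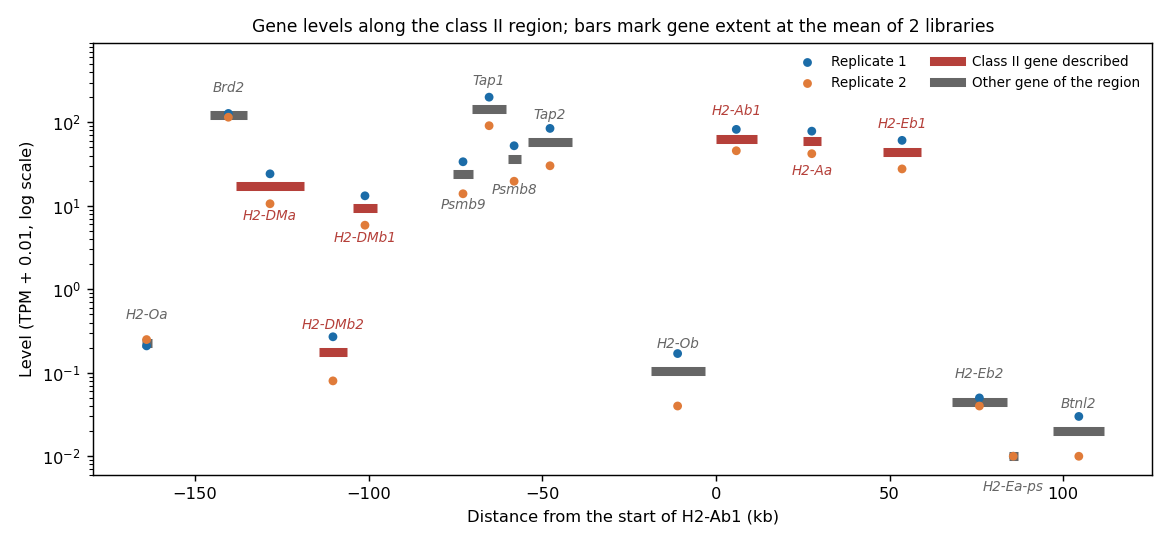
Gene levels along the class II region of chromosome 17 by distance from the start of H2-Ab1 (kb), as TPM + 0.01 on a log scale; bars span each gene at its mean over both libraries, points give each library. The described genes (red) stand between 9.51 and 64.0 TPM except H2-DMb2 at 0.165 TPM, and H2-Oa, H2-Ob, H2-Eb2, H2-Ea-ps and Btnl2 lie under 1 TPM.

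The factors that recruit Ciita to the X and Y boxes were present at uneven levels. Nfya, a subunit of NF-Y, had 50.6 TPM in replicate 1 and 33.6 in replicate 2, while its partners Nfyc (2.93 and 1.89 TPM) and Nfyb (1.92 and 1.72 TPM) were lower. Creb1, which binds X2, had 26.4 and 28.6 TPM. Of the RFX complex, Rfx5 had 7.90 and 4.62 TPM, Rfxank 1.47 and 0.80 TPM, and Rfxap 0.97 and 1.13 TPM. In all, 5 of 7 reached 1 TPM in both libraries, 2 reached 10 TPM, and 0 of 7 were over 2-fold apart between them; the second quantifier put 4 of 7 at 1 TPM or more.

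All 8 genes listed for the control of Ciita were above 1 TPM and 7 above 10 TPM in both libraries. Irf1, an interferon regulatory factor, led with 454 TPM in replicate 1 and 226 in replicate 2. Ifngr1, which binds interferon-γ at the surface, had 81.6 and 52.4 TPM. Both stood well above Ciita itself in both libraries.

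Enzymes that prepare antigen and the invariant chain were among the highest transcripts. All 7 listed were above 1 TPM and 6 above 10 TPM in both libraries. The cathepsin genes led: Ctsb with 2751 TPM in replicate 1 and 1353 in replicate 2, Ctsd with 2268 and 1283 TPM, and Ctss, whose product makes the late cuts in the invariant chain, with 1570 and 750.3 TPM. Ctss was thus several times the level of Cd74.

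Genes for the turnover of surface class II were also read. March1, a ubiquitin ligase that sends class II to lysosomes, had 22.7 TPM in replicate 1 and 11.7 in replicate 2, and its relative March8 had 14.5 and 9.44 TPM. Cd83, which opposes March1, had 205 and 163 TPM. Of the partners of surface Cd74, the co-receptor Cd44 had 95.2 and 144 TPM, the ligand Mif 13.9 and 6.55 TPM, and Cxcr4 4.35 and 3.91 TPM. Cd44 ran against the class II genes, at 0.479-fold in replicate 1 over replicate 2. Cxcr2 had 0 counts, for which the same allowance for counting error equals 0.047 and 0.0526 TPM, although the second quantifier gave it 0.722 and 1.20 TPM.

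Class I genes stood above class II genes as a group, with overlap. The median of the 10 listed was 331 TPM in replicate 1 and 180 in replicate 2, against 42.5 and 19.1 TPM for the 8 class II genes, and 0.28 and 0.21 TPM for all nuclear protein-coding genes. H2-K1 led with 3984 and 2600 TPM, then H2-D1 with 2734 and 1298 TPM and the light chain gene B2m with 992 and 672 TPM; the H2 class I genes are alike enough in sequence to exchange reads. Cd74, H2-Ab1, H2-Aa and H2-Eb1 lay within the class I range of means, 40.045 to 3292 TPM. The lowest of that list was H2-M3, which averaged 21.3 TPM in the second quantifier, above H2-Eb1 at 16.9 TPM there. Class I genes were higher in replicate 1 for 9 of 10, with a median log2 ratio of 0.60.

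Macrophage markers were high, and those of dendritic, B and T cells were low or at 0. All 8 macrophage markers exceeded 10 TPM in both libraries, summing to 4120 TPM in replicate 1 and 2407 in replicate 2, led by Lyz2 (2211 and 1413 TPM), Adgre1 (996 and 491 TPM) and Csf1r (295 and 225 TPM). Of 8 dendritic cell markers 1 reached 1 TPM in both, Batf3 with 3.26 and 1.48 TPM, ahead of Ccr7 (1.80 and 0.65 TPM) and Clec9a (0.62 and 0.17 TPM). The 8 summed to 6.74 and 3.13 TPM, with Cd209a at 0. The 5 B cell markers summed to 0.96 and 0.47 TPM, with Cd79b the highest at 0.58 and 0.35 TPM and Pax5 next at 0.31 and 0.01 TPM. The 3 T cell markers summed to 0.05 and 0 TPM, all of it Cd3d, although the second quantifier gave Cd3d 0.920 and 3.31 TPM.

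These markers also differed between the libraries. Of the 6 dendritic cell markers that averaged 10 or more counts, 4 were higher in replicate 1 on the TMM scale, with a median log2 ratio of 0.78. Of these, 2 were over 2-fold higher there, beside 4.45% of all genes: Ccr7 at 2.03-fold (95% counting interval 1.31 to 3.27) and Siglech at 2.07-fold (0.795 to 6.34), whose interval spans equal levels. Zbtb46 lay the other way, at 0.540-fold (0.330 to 0.877). All 8 macrophage markers were higher in replicate 1, 1 over 2-fold, with a median log2 ratio of 0.39. The part of dendritic or other cells in the class II levels, and of these differences in the class II ratios, was not tested.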

How the data were processed

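Per library, the authors deposited RSEM-style tables of genes and of transcripts, and a kallisto-style transcript table (the second quantifier). The deposited readme files name build mm10 and annotation GENCODE M21. The sources used here name no aligner, version or strand setting. As the file headers show, the deposited gene tables carry expected counts (fractional estimates of reads), TPM by effective length, a posterior mean TPM, and a signal on the TPM scale, the bounds of an interval of unstated level. Expected counts of annotated genes totalled 23630328 in replicate 1 and 15687634 in replicate 2. Rows that name no annotated gene were left out and held 1.19% and 0.215% of expected counts.

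The 8 genes and the other lists were chosen with earlier results of these data known. With 1 group no test was made. Expected counts were rounded and scaled by TMM in edgeR 4.0.16 (R 4.3.3), used for its scaling factors only, and ratios were taken over genes that averaged at least 10 counts. Alternative size factors came from DESeq2 1.42.0. Intervals are 95% (exact binomial for ratios, exact Poisson for counts), a count of 0 allows 3 counts, and both cover counting error only, as the reads carry no molecular identifiers. Shares by transcript class use the annotated class of each transcript. Text names all 8 genes, their transcripts of 5% or more of the gene's TPM in either library, the highest 3 of each other list, and every gene of the lists of other class II genes, neighbours and promoter-binding factors; some genes that this rule names are not reported here. Alternatives were the second quantifier, the posterior mean, other floors and scalings, no filter, another pseudocount and each library alone. Promoter letters come from RefSeq (GRCm38.p6) and transcript letters from GENCODE M21. Python 3.11.15 (Biopython 1.88, scipy 1.17.1, pandas 2.3.3, numpy 2.4.6) ran the rest. The ratio step was tested on simulated data.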

Additional observations from a re-analysis of the deposited data

How the results depend on the processing

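The count of 7 genes at 1 TPM or more was the same with the posterior mean, the second quantifier, rescaled TPM, floors of 5 and 0.1 TPM, and with either library left out (7 to 7). Over 2-fold apart between the libraries were 0 of the class II genes by TMM. Beside them stood 1257 of 14052 genes, or 8.95% (626 higher in replicate 1 and 631 in replicate 2). By deposited TPM it was 3, beside 2270 of 14052 genes or 16.2% (split 2003 and 267). Counts of the second quantifier gave 0, beside 2730 of 22331 genes or 12.2% (split 892 and 1838). With no filter it was 1, beside 4858 of 21915 genes or 22.2% (split 2127 and 2731). The 1 is H2-DMb2, with a ratio on the log2 scale of 1.15 after adding 0.5 counts, and the no-filter count holds more genes by construction. The deposited TPM carry the median log2 shift of 0.47 between the libraries, against -0.41 for TPM of the second quantifier. Nuclear protein-coding genes summed to 281400 TPM in replicate 1 and 188040 in replicate 2. With TPM rescaled to that sum the median log2 shift was -0.11, and 10718 of 22015 such genes reached 1 TPM in both libraries, against 8773 before. The cause of the shift was not tested. The non-coding share of 16.7% became 21.8% in the second quantifier and 13.0% by expected counts, and 16.0% to 17.5% with 1 library left out; the cause was not tested. The order of mean levels changed for 2 genes in the second quantifier, H2-DMb1 and Ciita. The mean log2 level of H2-DMb2 was -2.02 with a pseudocount of 0.1 TPM and 0.22 with 1 TPM, a sign set by the pseudocount. Mean levels were lower in the second quantifier than in the gene tables, at 95.9 against 235 TPM for Cd74, 26.1 against 64.0 for H2-Ab1, 22.98 against 60.25 for H2-Aa, 16.9 against 44.25 for H2-Eb1, 10.1 against 17.4 for H2-DMa, 3.85 against 9.51 for H2-DMb1 and 5.46 against 7.885 for Ciita; the cause was not tested. Of the values for single genes 47 kept within their error and 20 moved past it. The 20 include 6 of these levels, all but that of H2-DMa. For a level the error is the SD over the 2 libraries, and for a ratio it comes from the counting interval alone. Leaving 1 of 2 libraries out always moves a mean by less than that SD. The mean levels with 1 library left out, all among the 47, could thus not have moved and say nothing of stability.

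No paired analysis was possible because the series holds 1 group. Low counts limit the precision of H2-DMb2 and of the genes at 0, and 2 libraries give imprecise SDs.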

Other observations

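The gene tables and the second quantifier placed reads differently on genes that lie among or across the class II genes. Gm20513, an antisense gene that overlaps H2-Eb1 over 2204 bases, had 7 expected counts in replicate 1 and 0 in replicate 2 in the gene tables, but 529 and 388 counts in the second quantifier. H2-Ob had 5 and 2 counts in the gene tables, and 403 and 279 counts in the second quantifier. Btnl2 had 1 and 0 counts in the gene tables, and 208 and 154 in the second quantifier. CR974462.4, which overlaps H2-DMa over 1491 bases, had 20 and 9 counts in the gene tables, and 115 and 84 in the second quantifier. Among the class II genes themselves, Cd74 had 8060 and 4383 counts in the gene tables, and 9303 and 6494 in the second quantifier. H2-DMa had 391 and 178 counts in the gene tables, and 566 and 364 in the second quantifier. H2-DMb2 had 8.26 and 2.05 counts in the gene tables, and 19.4 and 14.1 in the second quantifier.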
